A study of Bos taurus with 8 samples.

Results

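The SOX transcription factors studied here were the 8 genes *SOX4*, *SOX5*, *SOX6*, *SOX8*, *SOX9*, *SOX11*, *SOX12* and *SOX13*, chosen by name from a table of read counts for 24596 bovine genes. Of the 8 names, 6 were found in that table, and *SOX4* and *SOX11*, which had no row of that name, were not analysed here. RNA-Seq had been performed on chondrocytes from the knee joints of wild-type calves aged 1 to 2 weeks, taken either from the superficial zone of the articular cartilage (SZCs) or from its deep zone (DZCs), with 2 libraries per zone. All cells were primary and had spent 3 days in DMEM/F12 with fetal bovine serum before RNA was purified. The study's methods describe the libraries of a zone as biological duplicates, and the labels do not say which calf or joint each came from.

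SOX proteins bind DNA through an HMG box, which bends the helix, and they fall into subgroups by sequence. SOX9 is the factor on which the chondrocyte fate depends, and with its SOXE relatives *SOX8* and *SOX10* it carries a domain that activates transcription. *SOX5* and *SOX6*, of the SOXD subgroup, lack such a domain and act as partners of SOX9 at the enhancers of cartilage matrix genes, so that these genes are often spoken of as a trio. *SOX13* is the remaining SOXD gene, and *SOX12* belongs to the SOXC subgroup with *SOX4* and *SOX11*, which are known from skeletal progenitors and from the forming joint.

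The libraries held between 19918970 and 21890549 counts. Levels are given as CPM, the read counts put on a common library size with edgeR's trimmed mean of *M* values (TMM), which corrects for differences in composition. One such difference was *COL2A1*, the main collagen of cartilage, which took 24.5% of the counts in DZC replicate 1 and 6.31% to 12.9% in the other libraries. *PRG4*, which encodes the superficial zone lubricant lubricin, was at 3166 and 2024 CPM in the SZC libraries and 15.3 and 61.5 CPM in the DZC ones, in accord with the zone labels. The 5 chondrocyte markers examined (*COL2A1*, *ACAN*, *HAPLN1*, *COL9A1* and *COL11A1*) had a summed level from 118134 to 473232 CPM, and the summed levels of immune and of endothelial markers lay between 3.48 and 27.1 CPM. The DZC libraries differed more from each other than the SZC libraries did, with a median absolute log2 difference over all tested genes of 0.48 against 0.22. The summed level of *MKI67*, *TOP2A*, *CCNB1*, *CDK1* and *BUB1*, genes of dividing cells, was 12.4 CPM in DZC replicate 1, 272 CPM in DZC replicate 2, and 155 and 178 CPM in the SZC libraries. Gene lengths on the authors' genome build were not used, so levels of SOX genes are compared between libraries and not with each other.

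*SOX5* and *SOX6* were at higher levels in both SZC libraries than in either DZC library, by close to 2-fold in the mean, and neither passed the FDR threshold. *SOX8* and *SOX9* overlapped between the zones, with the DZC libraries far apart. *SOX12* had its higher mean in SZCs and *SOX13* in DZCs. SZCs were tested against DZCs by the exact test of edgeR with Benjamini–Hochberg adjustment over all 12857 genes that passed its filter, and 0 of the 6 SOX genes, all of which had passed that filter, reached an FDR of 0.05. Of all tested genes, 2.93% did so, 2.23% being higher in SZCs and 0.700% higher in DZCs. At an unadjusted p below 0.05 there were 2 of the 6 (*SOX5* and *SOX6*, both higher in SZCs), against 9.09% of all tested genes in either direction and 6.08% higher in SZCs.

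DESeq2 and edgeR's quasi-likelihood test gave the same count of 0 SOX genes at the FDR threshold and 2 at the unadjusted p. Of all tested genes DESeq2 called 3.09% and the quasi-likelihood test of edgeR 0%. The zones did not overlap for 4 of the 6 SOX genes, against 41.5% of all tested genes. For 3 of these both SZC libraries were above both DZC libraries (21.0% of all tested genes), and for 1 they were below (20.5%). The median log2 fold change of SZCs over DZCs was 0.60 for the 6 genes and -0.04 for all tested genes.

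**Figure D1:**
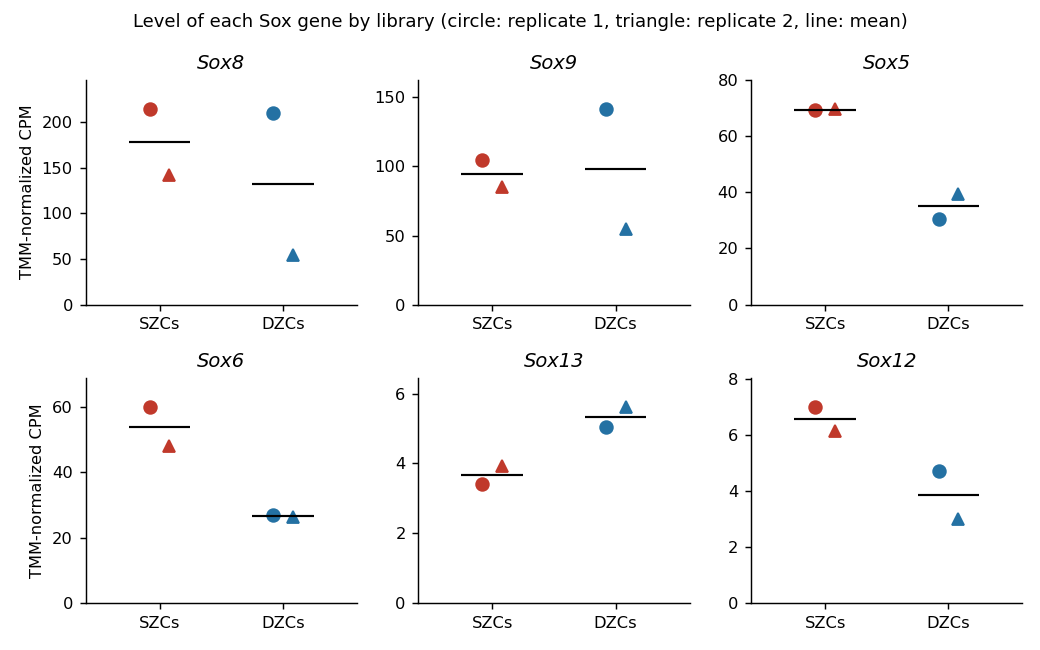
TMM-normalized CPM of each SOX gene (vertical axes, linear, from 0) in the SZC libraries (red) and the DZC libraries (blue), with replicate 1 as a circle, replicate 2 as a triangle and the mean of each zone as a line. The mean levels of *SOX5* and *SOX6* were 69.3 and 54.0 CPM in SZCs against 34.9 and 26.7 CPM in DZCs, while the DZC circles and triangles of *SOX8* and *SOX9* lay apart.

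Among the SOXD genes, *SOX6* (ENSBTAG00000044185) had 1318 and 1118 counts in the SZC libraries versus 435 and 588 counts in the DZC ones. These correspond to 59.9 and 48.2 CPM in SZCs and to 27.1 and 26.4 CPM in DZCs. The DZC values nearly coincided, and the lower SZC value exceeded the higher DZC value. The mean was 54.0 ± 8.28 CPM (SD, n = 2) for SZCs, compared with 26.7 ± 0.499 CPM (SD, n = 2) for DZCs. This is a 2.02-fold difference, or 1.02 on the log2 scale with a standard error (SE) of 0.34 and a 95% interval from 0.34 to 1.69. Its FDR was 0.0948 (edgeR exact test), and by its unadjusted p of 0.00352 *SOX6* ranked 477th of the 12857 genes.

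*SOX5* (ENSBTAG00000022360) gave the more even SZC values, at 69.1 and 69.6 CPM from 1521 and 1615 counts. In the DZC libraries it was at 30.4 and 39.4 CPM, from 489 and 879 counts. Every SZC value was therefore above every DZC value. Its log2 fold change of 0.99 (SE 0.35, 95% interval 0.31 to 1.67) came with an unadjusted p of 0.00466 and an FDR of 0.115 (edgeR exact test). A log2 fold change at least as high as that of *SOX5* was found in 8.42% of the tested genes.

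Whether this pair passed changed with single libraries, as did the number of calls over all genes. Without DZC replicate 1, where 6.67% of all tested genes were called, the edgeR exact test gave *SOX6* a log2 value of 1.04 (FDR 0.0185) and *SOX5* one of 0.82 (FDR 0.0815). Without DZC replicate 2, where 20.7% were called, it gave 1.01 (FDR 0.00999) and 1.2 (FDR 0.00114), respectively. In these fits the lone DZC library is taken to vary as the SZC libraries do. Without either SZC library, where 0.436% and 1.13% of all tested genes were called, the log2 fold changes of the pair lay between 0.85 and 1.16 and the FDR values of the edgeR exact test between 0.976 and 1. Here the lone SZC library is taken to vary as the DZC libraries do, which differed more from each other. SZCs were above DZCs in all 4 fits that left out 1 library.

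*SOX13* (ENSBTAG00000008132) was the SOXD gene with the higher mean in DZCs. It had 75 and 91 counts in SZCs versus 81 and 125 counts in DZCs, which gave 3.41 and 3.92 CPM against 5.04 and 5.60 CPM. Both DZC values lay above both SZC values, by about as much as the SE of the model, with a log2 fold change of -0.54 (SE 0.53, 95% interval -1.58 to 0.50). The FDR was 0.962 (edgeR exact test). As the interval reaches from 0.335-fold to 1.42-fold, 2 libraries per zone did not resolve a direction.

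**Figure D2:**
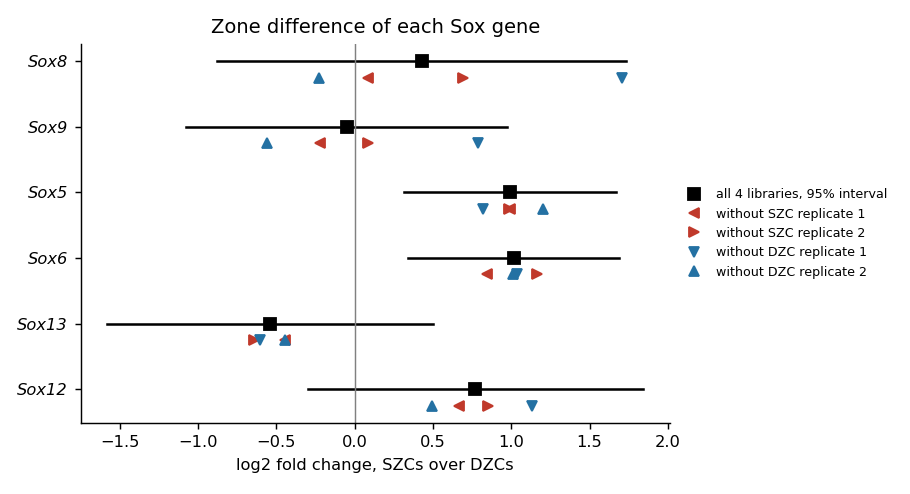
Log2 fold change of SZCs over DZCs (horizontal axis) for each SOX gene, as black squares with the 95% interval from the negative binomial model over all 4 libraries, and below each square the value with 1 library left out (red, an SZC library; blue, a DZC library). The intervals of *SOX5* and *SOX6* lie above 0, and the blue triangles of *SOX8* reach from -0.23 to 1.71.

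*SOX9* (ENSBTAG00000045824) showed no zone difference that these libraries could resolve. It had 2307 and 1973 counts in SZCs, equal to 105 and 85.0 CPM. In DZCs it had 2276 and 1228 counts, equal to 142 and 55.0 CPM. Both SZC values fell between the DZC values. The mean was 94.9 ± 14.0 CPM (SD, n = 2) for SZCs, compared with 98.3 ± 61.2 CPM (SD, n = 2) for DZCs, which made a log2 fold change of -0.05 (SE 0.52, edgeR exact test FDR 1). The 95% interval, from -1.08 to 0.98, leaves room for a difference of close to 2-fold in either direction. Its sign turned with single libraries, with 0.79 without DZC replicate 1, -0.56 without DZC replicate 2 and 0.09 without SZC replicate 2. Scaling by library totals only gave 0.38, but this shifted the median of all tested genes by 0.30, and relative to that median *SOX9* went from -0.01 to 0.12.

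*SOX8* (ENSBTAG00000020737) was spread more widely still. It had 4713 and 3285 counts in SZCs, equal to 214 and 142 CPM. In DZCs it had 3376 and 1217 counts, equal to 210 and 54.5 CPM. DZC replicate 1 thus lay close to the higher SZC library, and DZC replicate 2 lay below every other library. The log2 fold change was 0.43 (SE 0.67, 95% interval -0.88 to 1.73, edgeR exact test FDR 1). Without DZC replicate 1 it was 1.71 (FDR 0.000689 in the edgeR exact test), and without DZC replicate 2 it was -0.23 (FDR 0.672).

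The difference between the DZC libraries was common to the SOXE genes. *SOX8* was 3.85-fold and *SOX9* 2.57-fold as high in DZC replicate 1 as in DZC replicate 2, against 1.51-fold and 1.23-fold between the SZC replicates. *SOX10*, the SOXE gene outside the list of 8, was at 8.22 and 8.06 CPM in SZCs and at 14.6 and 6.54 CPM in DZCs, a ratio of 2.22 between the DZC replicates. Among all tested genes, 3.17% differed between the DZC replicates by at least as much as *SOX8*, 8.17% by as much as *SOX9* and 15.1% by as much as *SOX10*, on the log2(CPM + 1) scale and in either direction. For *SOX5*, *SOX6*, *SOX13* and *SOX12* the same ratio was 0.772, 1.03, 0.899 and 1.57. No condition in the labels separates these DZC libraries. In bulk RNA, fewer cells of a type and less RNA per cell cannot be told apart.

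*SOX12* (ENSBTAG00000027386), the SOXC gene with a row in the table, had 154 and 143 counts in SZCs versus 76 and 67 counts in DZCs. Its levels were 7.0 and 6.16 CPM against 4.73 and 3.0 CPM, without overlap. The log2 fold change was 0.77 (SE 0.55, 95% interval -0.30 to 1.84, edgeR exact test FDR 0.849). Beside it, 3 genes known to respond to SOXC factors were examined. *GDF5*, a growth factor of the forming joint, was called higher in SZCs, at 59.4 and 66.7 CPM against 19.3 and 10.5 CPM, or 2.08 on the log2 scale (SE 0.42, edgeR exact test FDR 0.000283). The log2 value was 2.15 without SZC replicate 1 and 1.99 without SZC replicate 2, with FDR values of 0.123 and 0.124 (edgeR exact test) in fits that called 58 and 150 genes in all. *TEAD2*, a partner of YAP and TAZ, and *TUBB3*, a neuronal tubulin, overlapped between the zones and had log2 fold changes of -0.33 and -0.62.

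Ratios between SOX genes within a library do not depend on how libraries are scaled, and 4 of them were computed from the counts. Their absolute values also reflect gene length, so only changes between libraries are described. The log2 ratio of *SOX5* to *SOX6* was 0.21 and 0.53 in the SZC libraries, and it was 0.17 and 0.58 in DZCs. Its mean was 0.37 in each zone, and in each zone the lower value was that of replicate 1.

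The ratio of either gene to *SOX9* singled out 1 library. The log2 ratio of *SOX6* to *SOX9* was -0.81 and -0.82 in SZCs, -1.06 in DZC replicate 2 and -2.39 in DZC replicate 1. The ratio of *SOX5* to *SOX9* was -0.60 and -0.29 in SZCs, -0.48 in DZC replicate 2 and -2.22 in DZC replicate 1. The zones did not overlap in the former ratio and did in the latter. Without DZC replicate 1 the difference of SZCs over DZCs went from 0.91 to 0.25 for *SOX6* to *SOX9*. For *SOX5* to *SOX9* it went from 0.91 to 0.04. Without DZC replicate 2 the differences were 1.57 and 1.77, respectively. *SOX8* to *SOX9* was at 1.03 and 0.74 in SZCs and at 0.57 and -0.01 in DZCs, without overlap. An exact two-sided permutation test over the libraries gave p = 0.333 for *SOX6* to *SOX9* and for *SOX8* to *SOX9*, the smallest p that 2 libraries against 2 allow, p = 0.667 for *SOX5* to *SOX9* and p = 1 for *SOX5* to *SOX6*. This test could therefore not reach 0.05 for any of these 4 ratios, with or without adjustment.

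**Figure D3:**
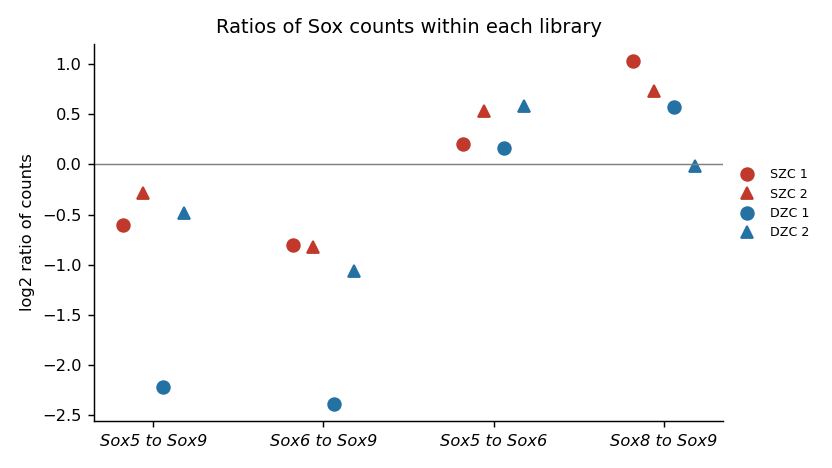
Log2 ratio of counts (vertical axis) for 4 pairs of SOX genes in the SZC libraries (red) and the DZC libraries (blue), with replicate 1 as a circle and replicate 2 as a triangle. DZC replicate 1 sits at -2.22 and -2.39 in the ratios of *SOX5* and *SOX6* to *SOX9*, and the other 3 libraries between -1.06 and -0.29.

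The same library stood apart in the make-up of the SOX counts. The 6 genes together took 10088 and 8225 counts in the SZC libraries and 6733 and 4104 counts in the DZC libraries. *SOX5* made up 7.26% of them in DZC replicate 1 (95% Wilson interval 6.67% to 7.91%). Its share was 21.4% in DZC replicate 2 (20.2% to 22.7%), 15.1% in SZC replicate 1 (14.4% to 15.8%) and 19.6% in SZC replicate 2 (18.8% to 20.5%). *SOX9* made up 22.9% and 24.0% in SZCs and 33.8% and 29.9% in DZCs, so both DZC shares were above both SZC shares. *SOX8* ranged from 29.7% in DZC replicate 2 to 50.1% in DZC replicate 1, with the SZC libraries between, at 46.7% and 39.9%. The intervals cover counting error alone and leave out variation between libraries. They are too narrow even for counting error where reads are PCR copies of the same molecule. Summed over the 6 genes, the level was 458 and 354 CPM in SZCs and 419 and 184 CPM in DZCs, and the zones overlapped.

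**Figure D4:**
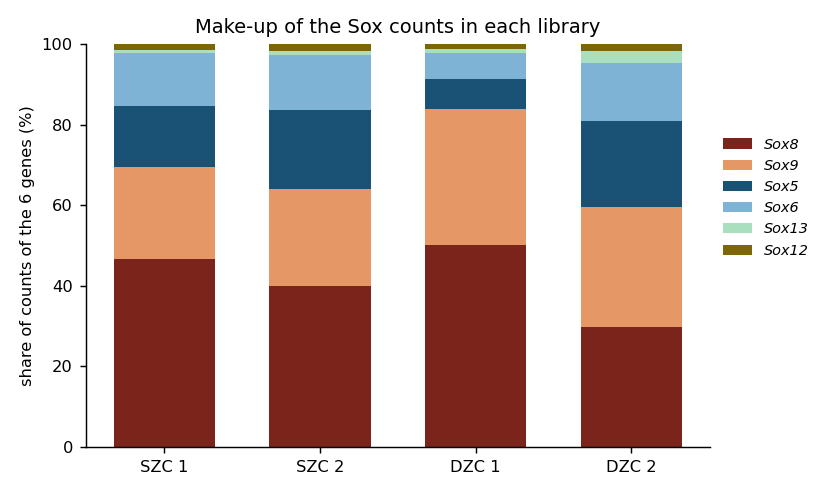
Share of each SOX gene in the counts of the 6 genes together (vertical axis, percent) in each library, as stacked bars. The *SOX5* and *SOX6* segments of DZC replicate 1, 7.26% and 6.46%, are the smallest among the 4 libraries, and its *SOX9* segment of 33.8% is the largest.

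Of the 12 other SOX genes looked for, 7 had a row, and 4 of these (*SOX14*, *SOX17*, *SOX21* and *SOX30*) had 0 counts in every library, which allows up to 3 counts, or 0.129 to 0.187 CPM. *SOX18*, an endothelial factor, was counted between 0 and 8 times. *SOX15* was at 2.27 and 1.38 CPM in SZCs and 1.68 and 1.21 CPM in DZCs. Neither it nor *SOX10* passed, with log2 fold changes of 0.34 and -0.37 (edgeR exact test FDR 1 and 0.999). Both signs turned with single libraries, to 0.32 for *SOX10* without DZC replicate 1 and to -0.07 for *SOX15* without SZC replicate 1, and *SOX10* was at 0.04 with library totals. *SOX10* is best known from Schwann cells and other derivatives of the neural crest. It was counted between 146 and 234 times in these libraries.

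Of the cartilage genes known as targets of the trio, those that passed with all 4 libraries were higher in DZCs. Out of 24 such genes 23 were tested, and 18 had a log2 fold change below 0, with a median of -1.0 against -0.04 for all tested genes. This rested on DZC replicate 1, without which 11 of the 23 were below 0 and the median was 0.05. The edgeR exact test called 3 of them higher in DZCs and 0 higher in SZCs, against 0.700% and 2.23% of all tested genes. *CNMD*, which encodes the anti-angiogenic protein chondromodulin, was at 551 and 663 CPM in SZCs and at 7111 and 2238 CPM in DZCs, or -2.94 on the log2 scale (SE 0.61, FDR 0.000917). Its log2 value was -1.88 without DZC replicate 1. *MATN3*, which encodes a matrix adaptor protein, was at 48.5 and 77.5 CPM in SZCs and at 186 and 334 CPM in DZCs, or -2.04 (SE 0.46, FDR 0.00212). It did not pass without SZC replicate 1 (FDR 0.855) or without SZC replicate 2 (FDR 0.111), and neither did *CNMD* (FDR 0.346 and 0.121). *CHAD*, which encodes the cell-binding protein chondroadherin, was at 37.5 and 110 CPM against 292 and 269 CPM, or -1.92 (SE 0.56, FDR 0.0373). Its log2 value was -2.90 without SZC replicate 2 and -1.35 without SZC replicate 1 (FDR 1). Both DZC libraries were above both SZC libraries in 11 of the 23 targets, these 3 genes among them, against 20.5% of all tested genes. For the 3 genes this adds no support, as they were called on the same libraries. *COL2A1* was at 64981 and 55516 CPM against 333205 and 118929 CPM and did not pass, at -1.91 (SE 0.59, FDR 0.0658). It passed in DESeq2 (FDR 0.0100), and its log2 value was -0.98 without DZC replicate 1 and -2.45 without DZC replicate 2. The count higher in DZCs was 16 without DZC replicate 2, 3 without DZC replicate 1, 1 without SZC replicate 2 and 0 without SZC replicate 1, in fits that called 20.7%, 6.67%, 1.13% and 0.436% of all tested genes. Without DZC replicate 1 a further 4 targets (*SCRG1*, *WWP2*, *MATN1* and *COL27A1*, named after their values were seen) were called higher in SZCs, with log2 values from 1.25 to 1.82, and the other 3 fits called 0 in that direction.

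Most of these cartilage genes also differed between the DZC libraries in the direction of the SOXE genes. Of the 23, 22 were higher in DZC replicate 1 than in DZC replicate 2, and 17 were at least 2-fold higher on the log2(CPM + 1) scale, where 49% and 5.48% of all tested genes were so. The median log2 difference of the 23 was 1.47, between the values of *SOX9* (1.35) and *SOX8* (1.93). The gene lower in DZC replicate 1 was *MATN3*, at -0.84. The genes of dividing cells lay on the other side, with all 5 lower in DZC replicate 1 and a median log2 difference of -3.24. The 5 fibroblast markers *COL1A1*, *COL3A1*, *DPT*, *THY1* and *PDGFRA* were all lower there too, with a summed level of 2798 CPM in DZC replicate 1, 10598 CPM in DZC replicate 2 and 12666 and 17554 CPM in the SZC libraries. The 7 hypertrophic or bone-forming markers summed to 12.3 CPM in DZC replicate 1, 71.3 CPM in DZC replicate 2 and 2.5 and 1.68 CPM in the SZC libraries. Among them *MMP13*, a collagenase, had 468 counts in DZC replicate 2 and 0 in the other 3 libraries, and *IBSP*, a bone matrix protein gene, had 268 counts there and at most 2 elsewhere. *IHH*, a signal of prehypertrophic chondrocytes, went the other way, with 194 counts in DZC replicate 1 against 48 in the other DZC library. It had 13 and 5 counts in the SZC libraries and was called higher in DZCs, at -4.12 on the log2 scale (edgeR exact test FDR 0.0160). Its log2 value was -2.40 without DZC replicate 1. Of the 7 markers 3 were tested and 1 was called, against 2.93% of all tested genes. What part dividing, fibroblast, hypertrophic or bone-forming cells had in the values of the SOXE genes was not tested.

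**Figure D5:**
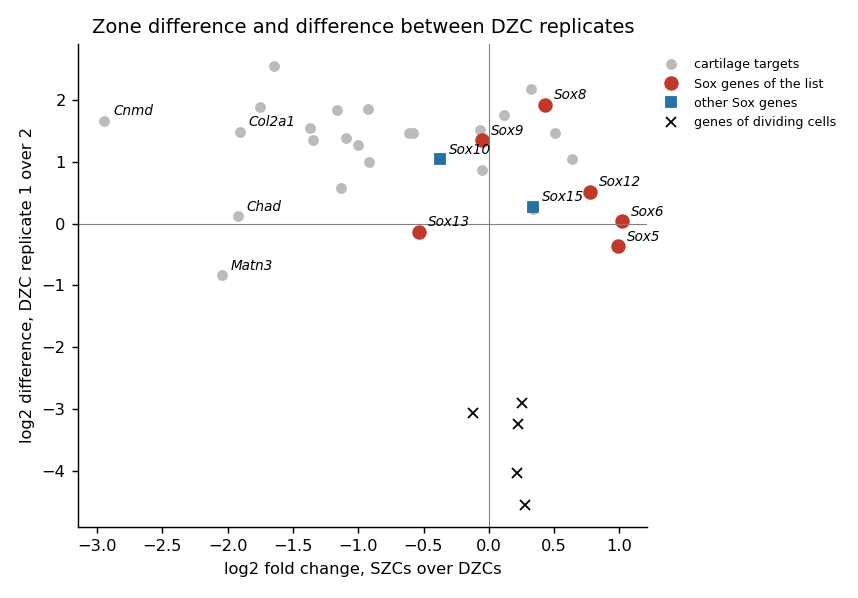
Log2 fold change of SZCs over DZCs (horizontal axis) against the log2 difference of DZC replicate 1 over DZC replicate 2 on the log2(CPM + 1) scale (vertical axis) for the 6 SOX genes (red), *SOX10* and *SOX15* (blue squares), 23 cartilage targets (grey) and 5 genes of dividing cells (crosses). *SOX8* and *SOX9* lie at 1.93 and 1.35 on the vertical axis among the cartilage targets, and *SOX5* and *SOX6* lie to the right at -0.36 and 0.04.

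SOX9 works with co-activators and partner proteins, and these genes gave 0 calls among the 13 tested of 15 examined, by the edgeR exact test, with 0 at an unadjusted p below 0.05, against 2.93% and 9.09% of all tested genes. Without DZC replicate 2 there was 1 call, where 20.7% of all tested genes were called. The histone acetyltransferase genes *CREBBP* and *EP300* had the highest log2 fold changes, 0.69 (SE 0.35) and 0.65 (SE 0.38), and in both the SZC libraries were above the DZC libraries. *ARID5A*, a partner of SOX9, had the lowest, -0.67 (SE 0.48). *MED12*, a subunit of Mediator, was at 75.6 and 66.3 CPM in SZCs and 43.9 and 56.3 CPM in DZCs. The median log2 fold change of the 13 was 0.08.

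The genes whose levels ran most like those of *SOX9*, *SOX6* and *SOX5* were found by the Euclidean distance between log2(CPM + 1) values centred over the 4 libraries, among 11811 named genes. For *SOX9* these were *PANX2*, *TCAP* and *TMCO4*, at distances of 0.03, 0.09 and 0.09. For *SOX6* they were *LRIG3*, *SNTB1* and *SESN1*, at 0.06, 0.07 and 0.09. For *SOX5* they were *BCAS1*, *TET1* and *HECW2*, at 0.03, 0.07 and 0.07. Of these *BCAS1* was at 1.82 CPM or less, where the added 1 CPM flattens differences. It does so to a lesser degree for *PANX2*, at 4.17 to 12.3 CPM, and for *TCAP*, at 2.24 to 7.34 CPM. With only 4 libraries such closeness is a description, and between 21 and 37 genes lay within a distance of 0.2 of each SOX gene.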

How the data were processed

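RNA was amplified by the authors with a kit for ultra-low input and sequenced from single ends. Reads were aligned to Ensembl build UMD 3.1 and counted as unstranded, with STAR 2.5.2b per the submitters' processing notes. The raw counts per gene were deposited. A deposited table of the authors' own comparison (fold changes and FDR) served only to fill 8 blank gene names. The 4 ATAC-Seq samples were not analysed here. As counting ignored strand, reads where genes overlap could not be assigned by strand. In RefSeq's ARS-UCD2.0 gene table, of another build, *SOX5* overlapped 1 other gene, *SOX6* overlapped 3 and the other SOX genes 0. These overlaps are of whole gene spans, introns included.

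Replicates differed beyond sampling noise (chi-square per degree of freedom 50.5 for SZCs and 245 for DZCs). The test and scaling were those of the study's methods, run in edgeR 4.0.16 (R 4.3.3) with the default filter, which kept 12857 genes. SEs and 95% intervals come from the negative binomial model with gene-wise dispersion. Ratios were tested by exact permutation. Alternatives were the quasi-likelihood test with and without a replicate block, DESeq2 1.42.0, 2 other filters, 3 other scalings, and each library left out. Scripts were tested on simulated data. From each list, called genes and those with the largest changes were named. The SOX genes and the lists were chosen with earlier results of these data known.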

Additional observations from a re-analysis of the deposited data

How the results depend on the processing

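None of the 6 SOX genes was called under any of the 8 alternatives that keep all 4 libraries. Over these, the log2 fold change lay between 0.99 and 1.26 for *SOX5* (FDR 0.102 to 0.335) and between 1.01 and 1.32 for *SOX6* (FDR 0.0553 to 0.311). The quasi-likelihood test of edgeR called 0 genes in all, 0 higher in SZCs, 0 higher in DZCs and 0 cartilage targets, with 1126 genes at an unadjusted p below 0.05. DESeq2 called 5 cartilage targets, where 3.09% of all tested genes were called. Scaling by library totals called 1, where 2.58% were called, with 44 genes higher in DZCs against 90, and ended the calls of *MATN3* (FDR 0.109) and *CHAD* (FDR 0.247). That scaling shifted the median over all tested genes by 0.30 on the log2 scale and raised the share of calls higher in SZCs from 76.1% to 86.7%. Relative to the shifted median, *SOX9* stood at 0.12, *SOX5* at 1.0 and *SOX6* at 1.06. The log2 fold change of *SOX9* turned from -0.05 to 0.38 with library totals, 0.0060 with upper quartile scaling and 0.10 with the replicate block.

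With the replicate number as a block, edgeR's quasi-likelihood test called 347 genes, 277 of them among the 377, and no SOX gene, with FDR values of 0.107 for *SOX5* and 0.0998 for *SOX6*. Same-numbered libraries deviated together from the mean of their zone (r = 0.42 across genes, which are not independent). With 2 libraries per zone the deviations within a zone are mirror images, so swapping the numbers in either zone would only turn the sign of r. The labels do not say that a number marks a shared animal. In the blocked quasi-likelihood fit *MATN3*, *CHAD* and *GDF5* kept the calls they had in the exact test, and *CNMD* did not (FDR 0.0793). Without the block the quasi-likelihood test called none of these genes. Its FDR values were 0.280 for *CNMD*, 0.244 for *MATN3*, 0.371 for *CHAD* and 0.192 for *GDF5*, all higher than with the block.

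Leaving out 1 library at a time gave 58 to 2725 genes called, 52 to 1607 higher in SZCs, 6 to 1118 higher in DZCs, 0 to 2 SOX genes, 0 to 16 cartilage targets and 0 to 1 co-factors. The SOX genes called were *SOX6* and *SOX8* without DZC replicate 1, and *SOX5* and *SOX6* without DZC replicate 2. The log2 fold changes ranged from -0.23 to 1.71 for *SOX8*, -0.56 to 0.79 for *SOX9*, 0.82 to 1.2 for *SOX5*, 0.85 to 1.16 for *SOX6*, 0.49 to 1.13 for *SOX12* and -0.64 to -0.44 for *SOX13*, and the difference in the *SOX5* to *SOX6* ratio from -0.21 to 0.20. The alternatives for the cartilage targets, *GDF5*, the co-factors and the ratios were chosen after seeing the data. A fit with a lone library in a zone takes its spread from the other zone, and the DZC libraries differed more from each other. The causes of the changes between settings were not tested.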
